A study of Mus musculus with 4 samples.

Results

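Gene expression in tumours grown from IL-34-deficient CT26 cells and treated with an anti-PD-1 antibody was compared with that in untreated tumours of the same cells. Bulk RNA-seq gave 1 library for each side. Genes were taken where the level in FPKM (mapped fragments relative to transcript length and library size) was 1 or more in either library, which kept 11714 of the 22504 genes of the table (11768 of its 23745 gene rows). CT26 is a colon carcinoma cell line of BALB/c mice, and all tumours of the study carried the BALB/c background. A further pair of libraries, untreated and anti-PD-1, came from tumours of CT26 cells that overexpress IL-34 and is used only for contrast. No library came from CT26 cells with unaltered IL-34, so IL-34 loss and other properties of the line cannot be told apart. The labels give neither the number of clones behind a line, the number of animals behind a library, the dose nor the time of treatment. With 1 library a group there is no replicate error, no test was possible, and every difference below is one between libraries.

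PD-1 is an inhibitory receptor on activated T cells. Its ligands PD-L1 and PD-L2, made by tumour and myeloid cells, dampen signals from the T cell receptor, and antibodies to PD-1 remove that brake. T cells released in this way secrete interferon-γ, which acts on neighbouring cells and raises antigen presentation genes, guanylate-binding proteins and the chemokines that draw further T cells. IL-34 is a cytokine that binds the CSF-1 receptor of macrophages and monocytes.

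Differences are given as log2 ratios of FPKM + 1, anti-PD-1 over untreated, and a gene is called higher or lower by size at a ratio of 1 or more, or −1 or less. Of the 11714 genes, 174 were higher by size (1.49%) and 40 were lower (0.341%). In the overexpressing line 6 of 11459 genes were higher (0.0524%) and 32 were lower (0.279%). The median gene of the deficient line had a log2 ratio of −0.06, with quartiles of −0.20 and 0.12. Over the same genes the SD of the log2 ratios was 0.35 in the deficient line and 0.18 in the overexpressing line. Ratios above 0 made up 40.2% of all genes kept, the background for each count above or below 0 given for a list. The treated deficient library was the highest of the 4 for 31.1% of all genes kept and the lowest for 45.8%. Most differences were modest, with 23 genes at a log2 ratio of 2 or more and 6 at −2 or less. Of the higher genes 52 were under 1 FPKM in the untreated library, and of the lower genes 14 were under 1 FPKM in the treated library; these entered through the library in which they were high and had to differ. At the FPKM minimum, Rpusd2, at 1.0003 FPKM with anti-PD-1, was just inside and Rasgrp3, at 0.998 FPKM untreated, just outside. At the size limit, the nearest genes on the lower side were 2410006H16Rik with −1.01 and Ero1l with −0.99.

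**Figure D1:**
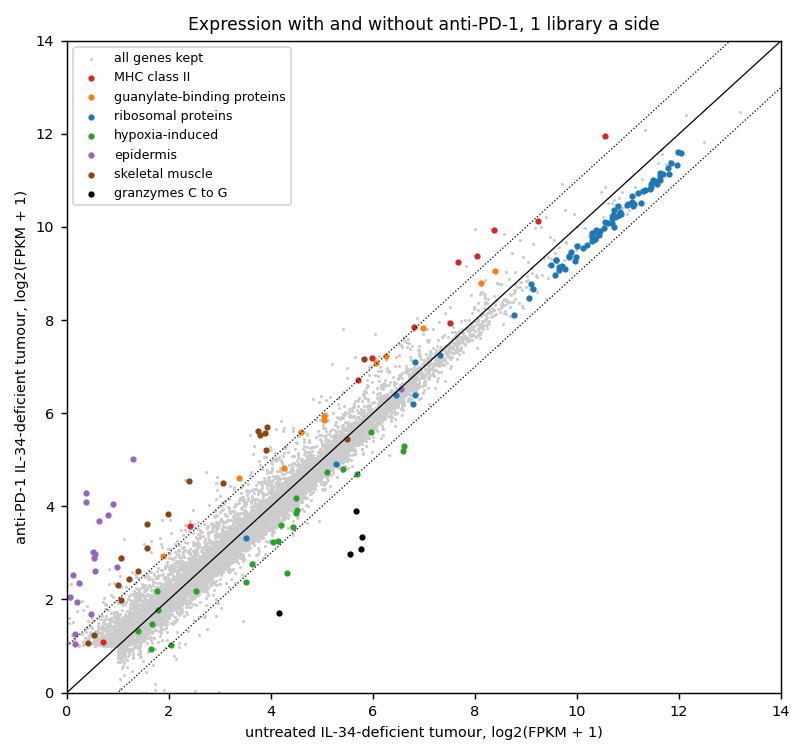
Log2(FPKM + 1) of the 11714 genes in the untreated (horizontal axis) and anti-PD-1 (vertical axis) libraries of the IL-34-deficient line, with gene groups in colour, the line of equal values solid and log2 ratios of 1 and −1 dotted. MHC class II and guanylate-binding protein genes lie above the line of equal values, ribosomal protein genes and most hypoxia-induced genes below it, and granzymes C to G furthest below among the coloured groups.

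FPKM sums were 543926 in the untreated and 488881 in the anti-PD-1 library of the deficient line, and 523753 and 518464 in those of the overexpressing line. Depth relative to the untreated deficient library, read from the step size of the lowest values, was 92.6% for the anti-PD-1 deficient library and 94.9% and 89.7% for the other pair. Read counts are not known, so no counting interval is given. Il34 was at 3.52 FPKM untreated and 3.02 FPKM with anti-PD-1 in the deficient line, and at 104 FPKM in both libraries of the overexpressing line. The transcript was thus low but not at 0 in the deficient tumours, and the labels do not say how the gene was disrupted. Epithelial markers of a colon carcinoma were nearly absent from the tumours: Epcam, an epithelial adhesion molecule, stayed under 1 FPKM, and Krt8, Krt18 and Krt19, keratins of simple epithelia, were at 1.94, 2.29 and 2.74 FPKM untreated. With anti-PD-1, Krt8 was listed at 0, Krt18 was at 0.0349 FPKM and Krt19 at 0.0357 FPKM. It was only in the untreated deficient library that these keratins reached 1 FPKM. The wider list of simple epithelial and carcinoma genes had no common direction. Of 7 kept, 4 were above 0 and 3 were lower by size, with a median of 0.29. Of these 7, 2 passed the minimum only through the treated library and 3 only through the untreated one. Summed over Krt8, Krt18, Epcam and Cdh1, the level was 1.82 FPKM with anti-PD-1 and 5.26 FPKM without.

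Transcripts of skin and skeletal muscle were far more abundant in the anti-PD-1 library than in the other 3. Of 19 epidermal keratin and cornification genes kept, 17 were higher by size, with a median log2 ratio of 2.36, and 17 of the 19 passed the minimum only through the treated library. The exceptions to that were Krt10 and Lgals7, a galectin of keratinocytes, which was at 91.2 against 92.4 FPKM. Krt14, a keratin of basal keratinocytes, was at 18.5 FPKM with anti-PD-1 and 0.293 FPKM without, and at 0 and 0.0296 FPKM in the untreated and anti-PD-1 libraries of the overexpressing line. Krt10, a keratin of the upper epidermis, was at 31.2 against 1.44 FPKM. Summed over Krt1, Krt5, Krt10 and Krt14, the level was 78.9 FPKM with anti-PD-1, 2.77 FPKM untreated, and 0.670 and 0.509 FPKM in the overexpressing line. None of the 14 hair follicle genes reached 1 FPKM.

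Of 19 skeletal muscle genes kept, 15 were higher by size, with a median of 1.45 in the deficient and −0.96 in the overexpressing line. Acta1, the skeletal muscle actin, was at 143 against 55.3 FPKM in the deficient line, and at 39.0 FPKM untreated and 3.27 FPKM with anti-PD-1 in the overexpressing line. Muscle transcripts were present in both untreated libraries and highest in the treated deficient one. Of 5 adipocyte genes kept, 4 were above 0 and 1, Car3, which muscle also makes, was higher by size, with a median of 0.29. Summed over Adipoq, Plin1 and Cidec, the level was 0.449 FPKM with anti-PD-1 and 0.340 FPKM without, and 0.483 and 0.0678 FPKM in the untreated and anti-PD-1 libraries of the overexpressing line. In all, 33 of the 174 higher genes and 0 of the 40 lower genes belong to the lists for epidermis, hair follicle, muscle, fat, nerve and erythrocytes. In that order these lists held 19, 0, 19, 5, 4 and 3 of the 11714 genes kept. With so few members, nothing is read from the 0 of 40. The 17 epidermal genes and 3 muscle genes kept only through the treated library could only be above 0. How much skin and muscle in the sampled tissue contributed to other differences was not tested.

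T cell transcripts had ratios above 0 in the deficient line. All 11 genes of the T cell receptor complex and pan-T cell list that were kept had ratios above 0, with a median of 0.72 against −0.06 over all genes, and 2 of them were higher by size. Cd3g, a chain of the CD3 signalling complex, was at 37.7 FPKM with anti-PD-1 and 14.7 FPKM without, and at 11.4 and 9.38 FPKM in the untreated and anti-PD-1 libraries of the overexpressing line. Cd3e, its partner chain, was at 28.5 against 12.8 FPKM. In bulk tissue, more T cells and more RNA of these genes per cell cannot be told apart. Cd8a, a chain of the cytotoxic T cell co-receptor, was at 20.2 against 8.61 FPKM, and at 5.77 and 3.42 FPKM in the overexpressing line. Cd4, the helper T cell co-receptor, was at 4.57 against 1.57 FPKM, which gave a log2 ratio of 1.12 beside 1.14 for Cd8a. Among 17 genes that relay the T cell receptor signal, all were above 0 with a median of 0.58. They included the kinase Zap70 (6.92 against 2.99 FPKM) and the adaptor Lat (8.45 against 3.96 FPKM).

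Receptors that restrain T cells had ratios above 0 as well. All 7 inhibitory receptors kept had ratios above 0, with a median of 0.72 in the deficient and −0.25 in the overexpressing line. Lag3, an inhibitory receptor that binds MHC class II, was at 19.3 against 6.66 FPKM, with 5.31 and 3.82 FPKM in the overexpressing line, and no other member reached the size. The gene of PD-1 itself, Pdcd1, was at 13.1 against 7.56 FPKM, with a log2 ratio of 0.72. Havcr2 (TIM-3) was at 14.99 against 7.06 FPKM and Ctla4 at 3.35 against 1.37 FPKM. Both PD-1 ligands were higher by size. Pdcd1lg2, which encodes PD-L2, was at 8.18 FPKM with anti-PD-1, 1.84 FPKM without, and 1.72 and 1 FPKM in the overexpressing line, a log2 ratio of 1.69. Cd274, which encodes PD-L1, was at 46.8 against 22.8 FPKM, and at 21.0 and 26.9 FPKM in the overexpressing line. Its log2 ratio of 1.003 was only just past the size, and was 0.895 with 5 FPKM added in place of 1. The list of ligands of inhibitory receptors, to which both PD-1 ligands belong, had 6 of 10 genes above 0 and a median of 0.15. Among the 4 below 0, Pvr, a ligand of TIGIT, was at 17.3 against 24.2 FPKM and Cd276 (B7-H3) at 5.05 against 6.64 FPKM.

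Of 14 costimulatory genes kept, 11 were above 0 and 2 were higher by size, with a median of 0.50. Cd27, a receptor of the TNF family on T cells, was at 10.3 against 3.70 FPKM, although its model is wholly overlapped by another one and its value is uncertain. Tnfrsf9, which encodes the activation-induced receptor 4-1BB, was among the 3 below 0, at 19.5 against 31.4 FPKM, and its ligand Tnfsf9 was at 12.3 against 18.0 FPKM. In the overexpressing line the receptor and ligand had 33.7 and 15.6 FPKM without and 34.7 and 15.01 FPKM with anti-PD-1, so the treated deficient tumour had the lowest value of each. Of 17 T cell transcription factors kept, 13 were above 0 and 4 below, with a median of 0.23, and none reached the size. Tbx21 (T-bet), the regulator of type 1 responses, was at 5.42 against 2.44 FPKM and Tox, a factor of persistently stimulated T cells, at 3.33 against 1.74 FPKM. Foxp3, the factor of regulatory T cells, was at 0.981 against 0.537 FPKM and so stayed under 1 FPKM in both libraries.

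All 9 cytokine genes of lymphocytes that were kept were above 0, with a median of 0.63. Ifng, which encodes interferon-γ, was at 11.8 FPKM with anti-PD-1 and 4.30 FPKM without, and at 2.70 and 3.16 FPKM in the overexpressing line. Xcl1, a chemokine that T and natural killer cells make for cross-presenting dendritic cells, was at 36.1 against 14.9 FPKM. Il2, Il4, Il5, Il13, Il17a, Il21 and Il22 were under 1 FPKM in both libraries. Of 13 natural killer cell genes, 12 were above 0 and 3 were higher by size. These were Cd7 (9.83 against 3.11 FPKM), Klrd1, which encodes CD94 (15.3 against 5.86 FPKM), and Klrc1, which encodes its partner NKG2A (16.3 against 7.57 FPKM). Cytotoxic T cells carry the same receptors. B cell markers were scarce, with Ms4a1 and Cd79a under 1 FPKM in both libraries. Of 19 B cell and plasma cell genes 6 were kept, 5 of them above 0 and 1 higher by size, with a median of 0.52. Of these 6, 2 passed the minimum only through the treated library and 1 only through the untreated one. The median moved to 0.12 with no minimum level and to 0.19 with 5 FPKM added in place of 1.

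The granzymes, serine proteases of cytotoxic granules, split by gene. Of 14 cytotoxic granule genes kept, 9 were above 0, 2 were higher by size and 5 were lower by size. Their median was 0.30 in the deficient and −0.23 in the overexpressing line. Gzmf was at 9.15 FPKM with anti-PD-1 and 53.8 FPKM without, and at 148 and 56.5 FPKM in the untreated and anti-PD-1 libraries of the overexpressing line. Gzmc, Gzmd, Gzme and Gzmg were lower as well, with log2 ratios from −1.78 to −2.68. The treated deficient tumour thus had the lowest level of all 5, and all were highest in the untreated overexpressing one. Gzmb, the granzyme most used to mark cytotoxic cells, lies next to them and was at 96.2 against 70.7 FPKM, with 92.9 and 99.1 FPKM in the overexpressing line. Granzymes C to G are close copies, and how the counting divided shared reads among them is not known. Nkg7, a granule membrane protein, was at 74.3 against 29.6 FPKM and was higher by size.

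Interferon-induced genes had ratios above 0 as whole families. All 11 guanylate-binding proteins, GTPases that attack intracellular pathogens, were above 0, with a median of 0.89 in the deficient and 0.20 in the overexpressing line, and 4 were higher by size. Gbp8 was at 23.4 FPKM with anti-PD-1 and 9.40 FPKM without, and at 6.94 and 8.27 FPKM in the overexpressing line. The most abundant, Gbp2, was at 532 against 334 FPKM. All 8 genes kept from the list of immunity-related GTPases were above 0 with a median of 0.88. Among them were Igtp at 190 against 96.1 FPKM and Iigp1 at 184 against 99.7 FPKM. The only member higher by size was Gvin1, at 22.1 against 7.24 FPKM. Another model overlaps almost its whole span, so its value is uncertain. The copies Tgtp1 and Tgtp2, at 113 against 59.6 and 140 against 75.8 FPKM, may share reads. Of 13 genes of the interferon-γ signalling chain, 11 were above 0 and 2 below, with a median of 0.30, and 0 reached the size. Its transcription factor Irf1 was at 166 against 104 FPKM.

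Type I interferon-stimulated genes were above 0 without exception, 27 of 27, yet none reached the size, and their median was 0.58. In the overexpressing line the median was 0.34, so this list was positive with anti-PD-1 in both lines. Oas2, an antiviral sensor of double-stranded RNA, was at 30.0 against 14.9 FPKM, and at 11.8 and 19.6 FPKM in the overexpressing line. Ifit3 was at 45.5 against 25.1 FPKM and Mx1, an antiviral GTPase, at 11.2 against 6.09 FPKM.

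The promoters of the interferon-responsive genes are shown because whole families of these genes had ratios above 0. RefSeq promoters of 300 bases, 250 before to 50 after the start of transcription on GRCm38.p6, could be matched to 9088 of the genes kept. They are of the C57BL/6 reference and not of BALB/c. The core of the interferon-stimulated response element, GAAANNGAA on either strand, was found in 10 of the 10 matched promoters of guanylate-binding proteins and immunity-related GTPases, in 13 of 18 of the type I interferon-stimulated genes and in 7.55% of all promoters matched. The gamma-activated site, TTCNNNGAA, was in 6 of those 10, in 3 of those 18 and in 7.05% of all. Among the 108 matched promoters of genes higher by size, 13 had the response element core. In the lines below, capitals mark the response element core in Gbp2 (chr3:142620413-142620712, plus strand), where it begins 58 bases before the start, and in Cxcl10 (chr5:92348840-92349139, minus strand), where it lies 213 bases before it.
Gbp2: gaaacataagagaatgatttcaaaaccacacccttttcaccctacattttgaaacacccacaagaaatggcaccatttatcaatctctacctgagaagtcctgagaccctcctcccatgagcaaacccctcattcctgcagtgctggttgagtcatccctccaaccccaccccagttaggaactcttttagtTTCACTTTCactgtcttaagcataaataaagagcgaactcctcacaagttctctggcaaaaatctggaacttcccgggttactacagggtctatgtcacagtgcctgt
Cxcl10: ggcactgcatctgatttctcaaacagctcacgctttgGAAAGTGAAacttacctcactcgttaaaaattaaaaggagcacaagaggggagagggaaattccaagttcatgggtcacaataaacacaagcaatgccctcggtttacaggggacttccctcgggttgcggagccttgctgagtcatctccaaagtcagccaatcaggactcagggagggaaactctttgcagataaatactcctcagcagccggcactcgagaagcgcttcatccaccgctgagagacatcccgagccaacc
A match is a string of letters and not a shown binding site.

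MHC class II, which presents peptides to helper T cells, had the highest median of the antigen presentation lists, 1.15 over 11 genes kept, all above 0 and 8 higher by size. In the overexpressing line the median was −0.60. H2-Eb1, the beta chain of the I-E molecule, was at 610 FPKM with anti-PD-1 and 202 FPKM without, and at 179 and 98.7 FPKM in the untreated and anti-PD-1 libraries of the overexpressing line. H2-Ab1, the beta chain of I-A, was at 976 against 332 FPKM, with 310 and 183 FPKM in the overexpressing line. Cd74, the invariant chain that guards the peptide groove, was at 3978 against 1498 FPKM. Treated tumours were therefore the highest of the 4 in the deficient line and the lowest in the overexpressing line for these genes. Ciita, the master regulator of class II transcription, was at 10.9 against 4.35 FPKM and H2-DMb2, of the peptide-loading molecule H2-M, at 144 against 62.4 FPKM. H2-Ea-ps, a pseudogene in the C57BL/6 reference whose BALB/c counterpart is an intact I-E alpha chain gene, was at 919 against 376 FPKM.

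Class II promoters share an arrangement of boxes that end in the Y box, a binding motif of the factor NF-Y. The Y box core CTGATTGG, searched on both strands, was in 3 of 7 matched class II promoters and in 6.23% of all. It is shown in capitals in H2-Eb1 (chr17:34305617-34305916, plus strand), 62 bases before the start, and in H2-Aa (chr17:34287774-34288073, minus strand), 51 bases before it. H2-Aa, the alpha chain of I-A, was at 668 FPKM with anti-PD-1 and 260 FPKM without.
H2-Eb1: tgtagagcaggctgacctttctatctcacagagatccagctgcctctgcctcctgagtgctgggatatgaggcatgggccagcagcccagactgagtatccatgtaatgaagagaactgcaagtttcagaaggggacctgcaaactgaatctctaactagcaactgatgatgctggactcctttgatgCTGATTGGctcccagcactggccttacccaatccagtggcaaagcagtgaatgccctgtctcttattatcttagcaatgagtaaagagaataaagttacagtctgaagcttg
H2-Aa: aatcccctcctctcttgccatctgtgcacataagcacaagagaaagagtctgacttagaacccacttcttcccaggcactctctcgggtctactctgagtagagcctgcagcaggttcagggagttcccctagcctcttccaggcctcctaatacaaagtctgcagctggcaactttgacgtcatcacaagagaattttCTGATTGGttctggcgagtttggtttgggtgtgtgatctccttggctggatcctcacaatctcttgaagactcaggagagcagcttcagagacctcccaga

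Class I presentation genes had smaller ratios in a uniform direction. All 18 were above 0 and 0 reached the size, with a median of 0.43. The peptide transporter Tap1 was at 180 against 102 FPKM and Nlrc5, the regulator of class I transcription, at 17.3 against 9.98 FPKM. B2m, the common light chain, was at 5418 against 4523 FPKM. The 5 immunoproteasome genes were also all above 0 with a median of 0.48, led by Psmb10 at 172 against 118 FPKM. By contrast, 28 of 31 genes of the constitutive proteasome were below 0, with a median of −0.09 that rescaling of the libraries turned to the other sign.

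Chemokines that attract T cells and their receptors were all above 0, 11 of 11 kept, with a median of 0.98 and 3 higher by size. Ccl5, a chemokine of T cells and other leukocytes, had the highest ratio of any gene outside the epidermal transcripts among genes of 5 FPKM or more in either library. It was at 223 FPKM with anti-PD-1 and 41.5 FPKM without, and at 35.4 and 34.1 FPKM in the overexpressing line, a log2 ratio of 2.40. Ccl3 was at 38.2 against 11.7 FPKM and Ccl4, a further CC chemokine, at 37.2 against 18.3 FPKM. Cxcl9, an interferon-γ-induced ligand of CXCR3, was at 219 against 110 FPKM, with 106 and 87.5 FPKM in the overexpressing line, and Cxcl10, a further ligand, was at 179 against 89.9 FPKM. Their ratios of 0.98 and 0.99 were just short of the size.

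Chemokines for other cells had no common direction. Ccl8, a monocyte and lymphocyte attractant, was at 986 FPKM with anti-PD-1 and 253 FPKM without, and at 292 and 189 FPKM in the overexpressing line. Its relatives in the same list had a range down to −0.36, with Ccl2 at 112 against 105 FPKM and Ccl6 at 105 against 135 FPKM, and the list's median was 0.13. Cxcl13, the B cell attractant, was at 23.8 against 6.70 FPKM and Cxcl12 at 19.9 against 9.67 FPKM, while Cxcr4, the receptor of Cxcl12, was lower at 4.97 against 8.87 FPKM. Of 12 genes tied to neutrophils, 8 were below 0 and 3 were lower by size. Their median of −0.65 moved to −0.16 with no minimum level and to −0.20 with 5 FPKM added in place of 1, and 5 of the 12 passed the minimum through 1 library only. Lcn2, which binds bacterial iron carriers, had 1.91 against 9.89 FPKM. Cxcl2, which attracts neutrophils, had 0.142 against 2.31 FPKM. S100a8 and S100a9, which together form calprotectin, were at 2.68 against 5.58 and 2.82 against 6.79 FPKM. Csf3r, the receptor of G-CSF, stood on the other side at 12.98 against 6.67 FPKM, so that S100a8, S100a9 and Csf3r summed to 18.5 against 19.03 FPKM.

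**Figure D2:**
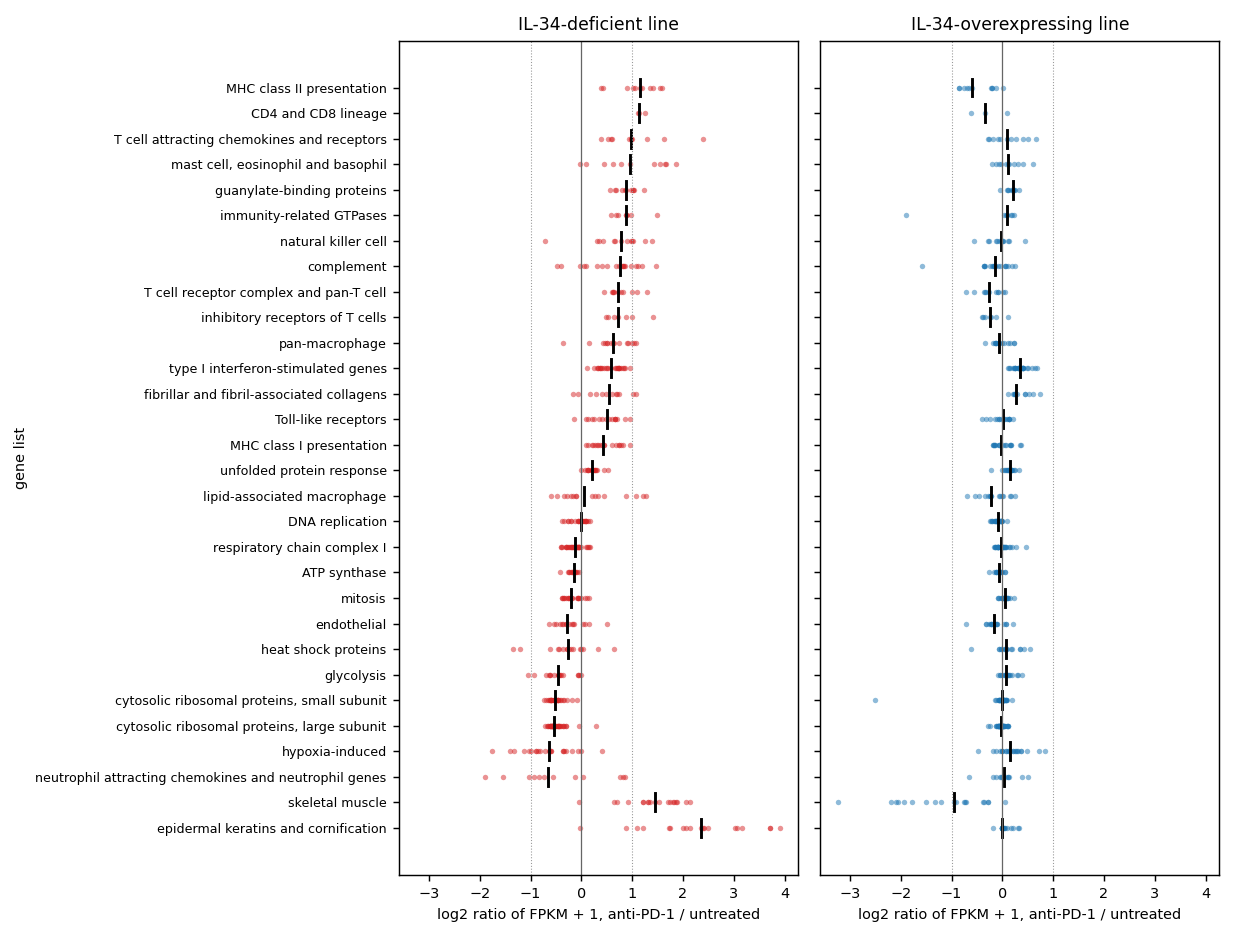
Log2 ratios of FPKM + 1, anti-PD-1 over untreated, for the kept members of 30 gene lists in the IL-34-deficient (left) and IL-34-overexpressing (right) lines, each point 1 gene and each bar the list's median. MHC class II lies at a median of 1.15 on the left and −0.60 on the right, while the large and small ribosomal subunit lists lie at −0.54 and −0.52 on the left and at −0.02 and −0.01 on the right.

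Most macrophage genes had ratios above 0. Of 15 pan-macrophage genes, 14 were above 0 with a median of 0.63, and 3 were higher by size. Emr1, which encodes F4/80, was at 79.2 FPKM with anti-PD-1 and 38.9 FPKM without, and at 38.6 and 35.4 FPKM in the overexpressing line. Mertk, a receptor for the uptake of dying cells, was at 10.1 against 4.27 FPKM and Lyz2, a lysozyme, at 4338 against 2587 FPKM. Csf1r, the receptor of IL-34 and CSF-1, was at 118 against 78.3 FPKM, with 79.7 and 70.4 FPKM in the overexpressing line, and Csf1 was at 96.7 against 78.4 FPKM. Of 16 Toll-like receptor pathway genes 15 were above 0, including the endosomal DNA sensor Tlr9 at 11.4 against 5.41 FPKM and Unc93b1, its chaperone, at 170 against 93.2 FPKM. Of 12 genes for scavenger receptors and tissue-resident-like macrophages, 9 were above 0 and 2 were lower by size, with a median of 0.17. The lower ones were Lyve1 and F13a1, at 2.12 against 6.60 and 11.5 against 25.1 FPKM. Lyve1 is also a lymphatic vessel gene. Spp1, Cd63 and Gpnmb, linked to lipid-laden macrophages, had ratios between −0.10 and −0.48.

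Of 20 complement genes, 17 were above 0 and 4 were higher by size, with a median of 0.77 against −0.15 in the overexpressing line. C3, the central component, was at 125 FPKM with anti-PD-1 and 44.1 FPKM without, and at 41.5 and 37.5 FPKM in the overexpressing line. Cfb, which forms the alternative pathway convertase with C3, was at 144 against 66.0 FPKM. C4b was at 76.6 against 32.7 FPKM, with its near copy C4a at 9.49 against 3.83 FPKM. C1qa, C1qb and C1qc, the recognition subunits made by macrophages, were at 1180 against 667, 1003 against 579 and 846 against 471 FPKM.

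Within the lipid-associated macrophage list, whose median was 0.05, the members higher by size were those of cholesterol export and lipoprotein handling. A list of such genes was put together after their values were seen. Nothing is read from its count of 6 of 14 kept members higher by size. Apoe, the apolipoprotein E gene, was at 1928 FPKM with anti-PD-1 and 836 FPKM without, and at 956 and 587 FPKM in the overexpressing line. Abcg1, a cholesterol exporter, was at 17.5 against 6.98 FPKM, Pltp, a phospholipid transfer protein, at 107 against 44.1 FPKM, and Lpl, lipoprotein lipase, at 7.74 against 2.61 FPKM. Nr1h3, which encodes the oxysterol receptor LXRα that is known to control these genes, was at 8.14 against 3.36 FPKM, with 3.76 and 2.46 FPKM in the overexpressing line. Scd1 and Srebf1, lipogenic genes that LXR also controls, were at 167 against 170 and 53.7 against 45.0 FPKM. Cholesterol synthesis genes had a median of −0.15, and 16 of 23 were below 0, near the share over all genes.

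Mast cell proteases were among the genes higher by size. Of 11 kept from the mast cell, eosinophil and basophil list, 10 were above 0 and 5 were higher by size, with a median of 0.95. The ratios ranged from −0.02 to 1.86, and 2 of the 11 passed the minimum only through the treated library. Tpsb2, a mast cell tryptase, was at 132 FPKM with anti-PD-1 and 35.7 FPKM without, and at 38.9 and 40.8 FPKM in the overexpressing line. Cpa3, carboxypeptidase A3, was at 49.6 against 16.2 FPKM and Cma1, a chymase, at 50.1 against 18.0 FPKM. The eosinophil genes Epx and Prg2 were under 1 FPKM in both libraries. Mast cells are abundant in skin, and epidermal genes were high in the same library; their part in this difference was not tested.

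Some regulators linked to interferon and interleukin signalling were picked for their high ratios, so nothing is read from them as a group. Il18bp, a decoy that neutralises IL-18, was at 77.7 FPKM with anti-PD-1 and 27.1 FPKM without, and at 25.4 and 22.5 FPKM in the overexpressing line. Il27 and Ebi3, the subunits of IL-27, were at 3.27 against 0.826 and 16.0 against 7.23 FPKM. Il2rg, the common gamma chain of several interleukin receptors, was at 127 against 60.9 FPKM, and Ptprcap, a CD45-associated protein of lymphocytes, at 32.3 against 14.02 FPKM. Il1b was lower, at 10.6 against 19.1 FPKM, with 12.4 and 15.1 FPKM in the overexpressing line.

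Some of the genes with the largest ratios were neighbours on the chromosomes. These segments were chosen after the values were seen, and positions are from the table on mm10. On chromosome 17, between 34135671 and 34344645, all 11 genes kept were above 0 and 7 were higher by size. They run from H2-DMa through Psmb9, Tap1, Psmb8 and Tap2 to H2-Ea-ps, so class II genes of high ratio enclose the class I processing genes, whose ratios were 0.48 to 0.82. On chromosome 15, between 74762056 and 75111949, 5 of 6 genes of the Ly6 family, which encodes small membrane-anchored proteins of leukocytes and other cells, were higher by size. Ly6a, which encodes Sca-1, was at 574 FPKM with anti-PD-1 and 227 FPKM without, and at 184 and 243 FPKM in the overexpressing line. Ly6c1 and Ly6c2, near copies that may share reads, were at 147 against 48.8 and 82.2 against 30.7 FPKM. Ly6d, at 5.29 against 0.771 FPKM, is a keratinocyte gene as well. The segment's other gene, Ly6e, was at 1314 against 872 FPKM.

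The granzyme segment of chromosome 14, from 56117619 to 56262260, had the opposite direction. Its 5 granzymes C to G were lower by size, and the neighbouring Gzmb had a log2 ratio of 0.44. On chromosome 11, between 82035577 and 82116799, 5 CC chemokine genes lay within 81.2 kilobases with ratios from 0.10 for Ccl2 to 1.96 for Ccl8. On chromosome 6, all 8 Gimap genes, GTPases of lymphocyte survival, were above 0 with a median of 0.76. Gimap3 was at 19.9 against 8.63 FPKM, and at 6.83 and 6.73 FPKM in the overexpressing line.

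**Figure D3:**
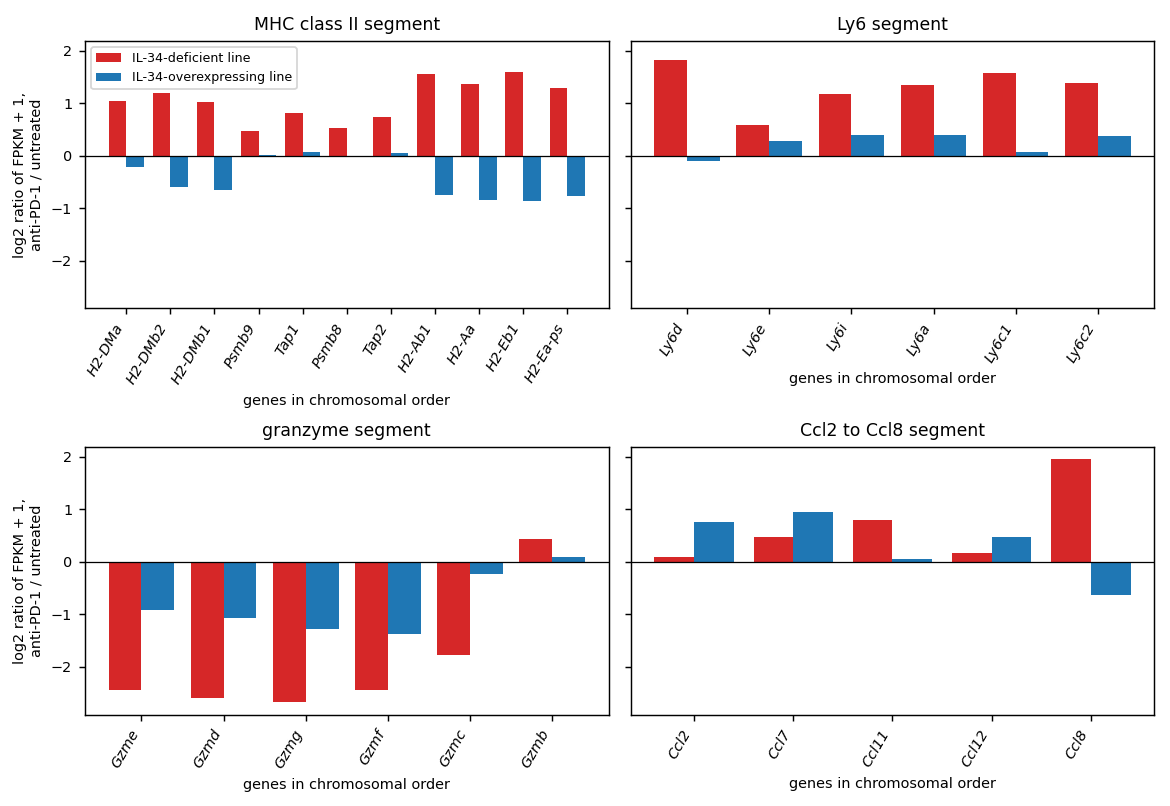
Bars show the log2 ratio of FPKM + 1, anti-PD-1 over untreated, in the IL-34-deficient (red) and IL-34-overexpressing (blue) lines for genes in chromosomal order in 4 segments. In the deficient line the MHC class II and Ly6 segments have ratios above 0 throughout, and granzymes C to G lie between −1.78 and −2.68 while Gzmb lies at 0.44.

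Genes of hypoxia and glycolysis had ratios below 0 in the deficient line, with 1 exception. Of 23 hypoxia-induced genes, 22 were below 0 and 5 were lower by size, with a median of −0.64 in the deficient and 0.15 in the overexpressing line. Car9, a carbonic anhydrase of hypoxic cells, was at 4.89 FPKM with anti-PD-1 and 18.99 FPKM without, and at 15.3 and 25.7 FPKM in the overexpressing line. Bnip3, a mediator of mitophagy, was at 35.2 against 95.2 FPKM, with 70.6 and 81.5 FPKM in the overexpressing line. Ndrg1 was at 38.0 against 96.8 FPKM, with 83.5 and 101 FPKM in the overexpressing line. For these genes the treated deficient tumour was the lowest of the 4, as for 20 of the 23 in the list and 45.8% of all genes kept.

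All 18 glycolysis genes were below 0, with a median of −0.45, although of these 18 only Eno2, a neuron-enriched enolase, was lower by size (9.45 against 20.7 FPKM). Pgk1, phosphoglycerate kinase, was at 352 FPKM with anti-PD-1 and 670 FPKM without, and at 564 and 608 FPKM in the overexpressing line. Ldha, lactate dehydrogenase A, was at 665 against 1025 FPKM and Slc2a1, the glucose transporter GLUT1, at 52.0 against 84.8 FPKM. Some angiogenic genes were picked for their low ratios, so nothing is read from them as a group. Apln, which encodes apelin, was at 11.9 against 29.9 FPKM, Angpt2, a ligand of the endothelial receptor TIE2, at 3.83 against 8.03 FPKM, and Vegfa at 25.5 against 33.3 FPKM.

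The core of the hypoxia response element, ACGTG on either strand, was in 19 of 36 matched promoters of the glycolysis and hypoxia-induced lists and in 26.3% of all promoters. Among the 29 matched promoters of genes lower by size it was in 4. It is shown in capitals in Car9 (chr4:43506776-43507075, plus strand), Bnip3 (chr7:138909457-138909756, minus strand) and Pgk1 (chrX:106186850-106187149, plus strand). In Bnip3 the capitals are a palindrome that matches on both strands. In Car9 the match lies 18 bases before the start.
Car9: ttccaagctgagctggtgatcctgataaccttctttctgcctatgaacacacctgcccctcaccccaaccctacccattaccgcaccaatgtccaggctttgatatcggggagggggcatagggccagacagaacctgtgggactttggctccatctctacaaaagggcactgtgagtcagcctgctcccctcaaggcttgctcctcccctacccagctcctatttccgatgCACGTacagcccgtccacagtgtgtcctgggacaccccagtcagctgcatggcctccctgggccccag
Bnip3: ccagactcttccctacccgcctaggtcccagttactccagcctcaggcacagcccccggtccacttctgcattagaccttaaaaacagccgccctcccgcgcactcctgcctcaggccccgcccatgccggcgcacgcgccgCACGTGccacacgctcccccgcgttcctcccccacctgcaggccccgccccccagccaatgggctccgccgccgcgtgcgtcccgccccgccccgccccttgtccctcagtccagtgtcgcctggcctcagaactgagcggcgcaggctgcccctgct
Pgk1: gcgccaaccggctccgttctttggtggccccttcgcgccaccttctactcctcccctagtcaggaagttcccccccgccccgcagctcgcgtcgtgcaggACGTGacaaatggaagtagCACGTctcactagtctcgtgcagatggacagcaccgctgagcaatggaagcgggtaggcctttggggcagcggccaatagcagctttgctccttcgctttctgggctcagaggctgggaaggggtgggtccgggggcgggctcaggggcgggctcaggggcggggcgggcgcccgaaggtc

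Other stress programmes were uneven. Hmox1, heme oxygenase 1, was at 33.3 FPKM with anti-PD-1 and 78.5 FPKM without, and at 58.8 and 106 FPKM in the overexpressing line, and was the only NRF2 target lower by size. The near copies Hspa1a and Hspa1b, inducible HSP70 genes, were at 1.36 against 5.03 and 2.52 against 7.08 FPKM. The unfolded protein response list ran the other way, with all 18 genes above 0 and a median of 0.22, beside 0.15 in the overexpressing line. Hspa5, the endoplasmic reticulum chaperone BiP, was at 436 against 362 FPKM. Clock-controlled genes were low in part. Dbp was at 2.1 against 5.02 FPKM, and Nr1d1, which encodes REV-ERBα, at 3.71 against 5.81 FPKM, while Per2 was at 2.88 against 1.82 FPKM.

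**Figure D4:**
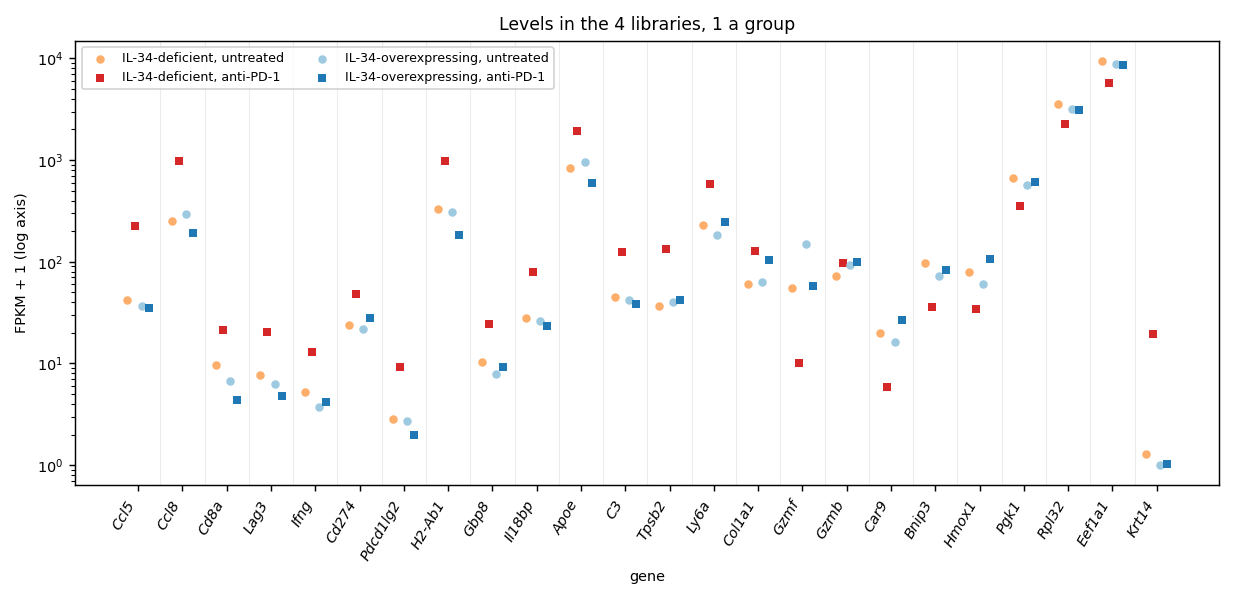
FPKM + 1 on a log axis for 24 genes in the 4 libraries, 1 point a library. The anti-PD-1 library of the IL-34-deficient line (red squares) is the highest of the 4 for Ccl5, Cd8a, H2-Ab1, C3 and Ly6a, and the lowest for Gzmf, Car9, Bnip3, Hmox1, Pgk1, Rpl32 and Eef1a1.

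Lower values extended across the cytosolic translation machinery. Of 79 cytosolic ribosomal protein genes, 78 were below 0 and 1, Rpl26, was above, with medians of −0.54 for the large and −0.52 for the small subunit, beside −0.02 and −0.01 in the overexpressing line. None reached the size. Rpl32 was at 2239 FPKM with anti-PD-1 and 3585 FPKM without, and at 3197 and 3093 FPKM in the overexpressing line. Rps4x was at 1454 against 2431 FPKM. Eef1a1, the factor that delivers aminoacyl-tRNA, was at 5704 against 9430 FPKM, with 8761 and 8677 FPKM in the overexpressing line, and Eef2, the translocation factor, at 1317 against 2060 FPKM. Mitochondrial ribosomal proteins had a median of −0.14, with 40 of 45 below 0, but their median was −0.0009 after rescaling of the libraries.

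Ribosomal protein genes took 24.7% of the FPKM sum in the untreated and 19.1% in the anti-PD-1 deficient library, and 24.3% and 24.2% in the overexpressing line. Together with 5 elongation factor genes, their summed FPKM was 46183 lower with anti-PD-1, while the sum over all gene rows was 55046 lower. When each library was rescaled to the same sum, the median of all genes moved from −0.06 to 0.08, and the medians of the large and small subunit lists were −0.39 and −0.36.

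**Figure D5:**
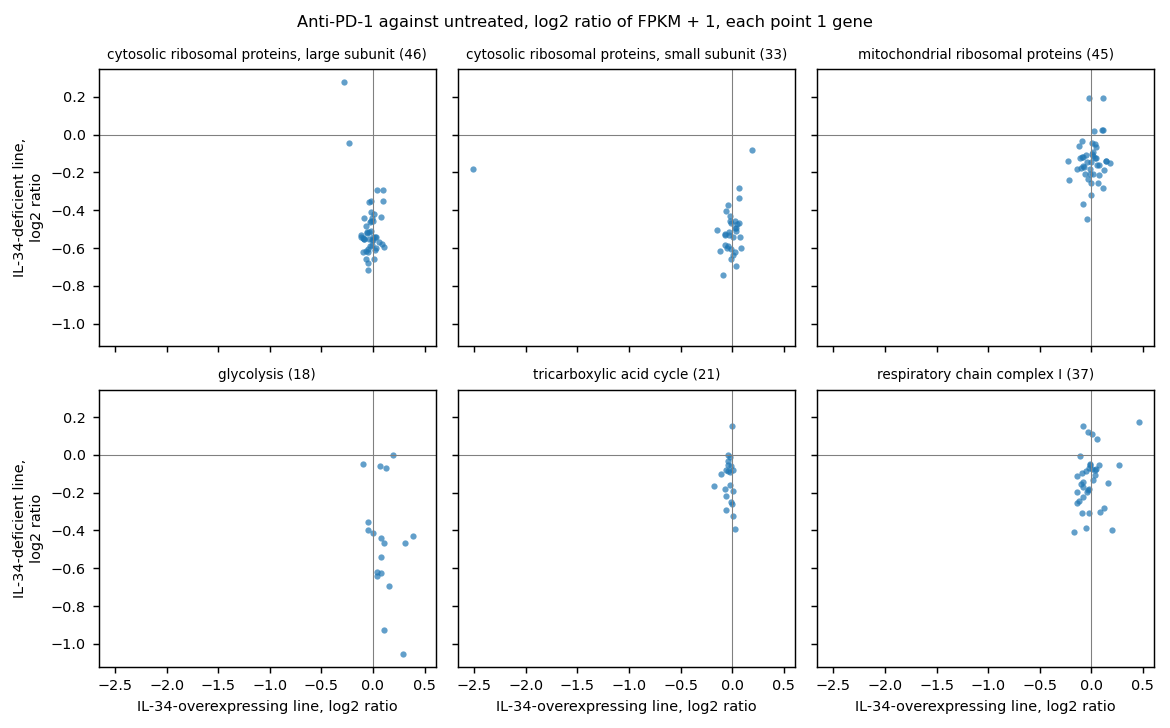
Log2 ratio of FPKM + 1, anti-PD-1 over untreated, in the IL-34-overexpressing (horizontal axis) and IL-34-deficient (vertical axis) lines for 6 gene lists, each point 1 gene. Cytosolic ribosomal proteins and glycolysis genes lie below 0 on the vertical axis and near 0 on the horizontal one, while tricarboxylic acid cycle and complex I genes lie close to 0 on both. The point furthest to the left is Rps27, whose overlapping models make its value uncertain.

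Mitochondrial respiration genes had small ratios. The medians were −0.10 for the tricarboxylic acid cycle, −0.13 for complex I and −0.15 for ATP synthase, and all 3 had the other sign after rescaling to a common sum. DNA replication genes were near the median gene, at −0.02, also with the other sign after rescaling. Mitosis genes had a median of −0.20, with 19 of 22 below 0, and of −0.05 after rescaling. Ccnb1, cyclin B1, was at 41.1 against 53.01 FPKM and Bub1, a spindle checkpoint kinase, at 14.3 against 18.5 FPKM. None of either list reached the size. Among p53 targets, Perp was higher by size (5.11 against 0.458 FPKM). It also encodes a desmosome protein of the epidermis, whereas Cdkn1a, the cell cycle inhibitor p21, was at 44.1 against 62.8 FPKM.

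In the stroma, fibrillar and fibril-associated collagens had a median of 0.54 in the deficient and 0.27 in the overexpressing line. In the deficient line 10 of 12 were above 0 and 2 were higher by size. Col1a1, a chain of type I collagen, was at 127 FPKM with anti-PD-1 and 59.6 FPKM without, and at 104 FPKM with and 62.2 FPKM without in the overexpressing line. Col3a1 was at 152 against 89.9 FPKM. Basement membrane genes had a median of −0.08, which rescaling also turned, with Col4a1 at 58.5 against 66.0 FPKM. Mmp12 and Mmp13, matrix proteases, were lower by size, at 1.56 against 5.72 and 0.731 against 3.28 FPKM. Clec3b, tetranectin, was at 8.78 against 1.16 FPKM, and the log2 ratio was 2.18.

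Of 16 endothelial genes 12 were below 0 and none reached the size, with a median of −0.27, and −0.17 in the overexpressing line. Cdh5, vascular endothelial cadherin, was at 7.63 FPKM with anti-PD-1 and 12.5 FPKM without, and at 15.4 and 12.99 FPKM in the overexpressing line. Mcam, an adhesion molecule of vessels and pericytes, was at 6.36 against 13.4 FPKM. Icam1, the adhesion molecule bound by leukocyte integrins, was at 25.6 against 14.7 FPKM, and Itgal, the alpha chain of its receptor LFA-1, at 34.6 against 15.8 FPKM.

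Several large ratios belong to models whose values are called uncertain here, since another model overlaps at least 0.5 of their span. Strand and exons were not compared, so whether any reads were shared is not known. Such an overlap was found for 8 of the 174 higher and 5 of the 40 lower genes. Its share over all genes kept is not given here, so nothing is read from these counts. BC002163 was at 0.0148 against 6.87 FPKM, Oaz1-ps at 22.7 against 3.94 FPKM, Amd1 at 0.0157 against 4.68 FPKM and Cxcr6 at 11.1 against 3.95 FPKM. Of 11 long non-coding RNAs kept, 8 were above 0 and 2, H19 and Malat1, were higher by size, with a median of 0.65. Malat1 was at 32.3 against 13.6 FPKM and Neat1, which did not reach the size, at 56.5 against 30.2 FPKM. In the overexpressing line Malat1 was at 12.3 FPKM untreated and 19.1 FPKM with anti-PD-1, and Neat1 at 41.1 and 33.0 FPKM.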

How the data were processed

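Total RNA of the tumours was extracted with a PureLink kit and made into strand-specific SureSelect libraries, per the labels' protocols. The authors deposited FPKM values for 23745 gene rows in 4 libraries, 1 per group. CASAVA 1.8.2, TopHat2 2.1.0, Cufflinks 2.2.1 and the mm10 build are named in the submitters' processing notes, with settings not given in the sources used here. FPKM depends on what else was sequenced, so very abundant transcripts in a library lower all other values.

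Of several rows with 1 symbol, that of highest mean was used, and 779 short RNA symbols were left out. Log2 ratios used a pseudocount of 1 FPKM, which understates differences of low genes. Only the ratio and the size call were checked, by putting known ratios without noise into a copy of the untreated values. The 91 gene lists held 1531 names, of which 4 were not matched by symbol or synonym. Members and lists were chosen with earlier results of these data known. The genes named were those of the IL-34 axis and the PD-1 axis, the 15 highest and 15 lowest ratios among genes of 5 FPKM or more in either library, and, per list, up to 6 with the largest ratios and up to 4 with the highest FPKM; others were chosen after their values were seen. Promoters are RefSeq sequences on GRCm38.p6, the one starting nearest to each model and within 1000 bases of it. Alternatives were other pseudocounts, FPKM minimums and scalings, and leaving out genes of other tissues. Python 3.11.15, numpy 2.4.6, pandas 2.3.3 and matplotlib 3.10.9 were used.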

Additional observations from a re-analysis of the deposited data

Results flagged for a closer look

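In the 16 genes below, the anti-PD-1 ratio was past the size of 1 in both lines and in opposite directions. Each value is the log2 ratio in the overexpressing line minus that in the deficient line. With 1 library a group, the difference was not tested.

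Most of these genes belong to skeletal muscle, with levels higher with anti-PD-1 in the deficient line and lower in the overexpressing line. The difference was −4.58 for Acta1, skeletal actin, −4.37 for the myosin light chain Myl1, −3.58 for the light chain Mylpf, −3.55 for the fast myosin Myh4 and −3.18 for Myh1. For the troponins it was −3.94 in Tnnc2 and −3.63 in Tnnt3. It was −3.94 for Ckm, muscle creatine kinase, −3.66 for Atp2a1, the calcium pump of fast muscle, −2.88 for Mybpc2 and −2.74 for Actn3. Car3, a carbonic anhydrase of muscle and fat, differed by −3.78. The imprinted RNA H19, also abundant in muscle, differed by −3.30.

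Outside muscle, the overlapped models Oaz1-ps and Gvin1 differed by −4.85 and −3.39, and both values are uncertain. Serpinb2, which encodes plasminogen activator inhibitor 2, had the reverse pattern with a difference of 2.75. It was at 0.640 against 3.40 FPKM in the deficient line, and at 6.21 FPKM with and 1.87 FPKM without anti-PD-1 in the overexpressing line.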

How the results depend on the processing

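The counts depended on the pseudocount. With 0.1 in place of 1 FPKM, 360 genes were past the size above and 70 below, and with 5 FPKM 69 and 12. Rescaled to TPM, a common sum, 369 were higher and 40 lower. TPM values were larger than FPKM while the pseudocount stayed at 1. That setting therefore differed in scaling and in the weight of the pseudocount. Centred on the median ratio, 210 were higher and 36 lower. A minimum of 5 FPKM in either library left 119 and 23, and 1 FPKM in both libraries, chosen after seeing the data, left 122 and 26. Without the genes of other tissues the counts were 141 and 40. Causes of these moves were not tested. For list medians and named genes, 100 recomputed values moved and 714 did not, counting as a move a difference of more than both 0.1 and 50% of the value, and 0 of those of at least 0.25 in size changed sign. The common sum gave the other sign to 17 of 90 list medians, all within 0.15 of 0. No paired analysis was possible because each group has 1 library, and none could be left out. Depth in reads is unknown.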
